A study of Mus musculus with 10 samples.

Results

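Fatty acid oxidation and ketogenesis genes were examined in liver biopsies of mice on a western diet. The set had 34 named genes, and its members were the rows of the deposited gene table that carried one of these symbols. In all, 33 of the 34 were among the 10913 genes of the table. Fgf21, the fasting hormone made by the liver, was the member absent from it.

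All 10 biopsies came from wild-type (WT) C57BL/6 mice after 12 weeks of western diet, and all were taken before any treatment. They fell into 3 groups by what was done or seen later: vehicle (3 mice), OCA non-responder (4 mice) and OCA-responder (3 mice). OCA is obeticholic acid, an agonist of the bile acid receptor FXR. The study called a mouse a responder when its NAFLD activity score, a histological grade of fatty liver disease, was at most 3 at the end of treatment. The sequenced mice were a subset of those treated, and how they were picked was not stated. Every difference below is therefore a difference before treatment, and a biopsy is a bulk sample in which fewer cells of a type and less RNA per cell cannot be told apart.

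Fatty acids are activated to acyl-CoA and carried as carnitine esters into mitochondria, where repeated turns of beta-oxidation release acetyl-CoA and pass electrons to the respiratory chain. Peroxisomes shorten very long and branched chains, and microsomal CYP4A enzymes oxidise the omega end of the chain. The fasting liver turns the acetyl-CoA into ketone bodies for other organs. The nuclear receptor PPAR alpha, which binds direct repeats of the half-site AGGTCA, is known to drive genes of all these routes in rodent liver.

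Upstream sequence is shown for members that the results below return to. Acaa1a and Acaa1b are shown because they are close paralogs with different levels, Hadha and Hadhb because they start back to back and vary little, Acadvl because it gave the smallest p between the later OCA and vehicle mice, and Cpt1a because its enzyme is the control point of mitochondrial entry. The sequences are those of RefSeq on GRCm38.p6, and each runs 5′ to 3′ on the strand of its gene over the 250 bases before the start site. They come from chr11:70015429-70015678 (minus strand), chr19:3323051-3323300 (plus strand), chr9:119341044-119341293 (plus strand) and chr9:119157094-119157343 (minus strand). The last one covers chr5:30154981-30155252 on the plus strand, 272 bases that hold the window before each of the Hadha and Hadhb start sites. Capitals mark the half-site AGGTCA on either strand.
Acadvl: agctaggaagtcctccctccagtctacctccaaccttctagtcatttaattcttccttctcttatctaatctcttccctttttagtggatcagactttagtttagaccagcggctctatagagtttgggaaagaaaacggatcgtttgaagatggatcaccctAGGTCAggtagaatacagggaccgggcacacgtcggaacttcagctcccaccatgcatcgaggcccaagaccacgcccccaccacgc
Cpt1a: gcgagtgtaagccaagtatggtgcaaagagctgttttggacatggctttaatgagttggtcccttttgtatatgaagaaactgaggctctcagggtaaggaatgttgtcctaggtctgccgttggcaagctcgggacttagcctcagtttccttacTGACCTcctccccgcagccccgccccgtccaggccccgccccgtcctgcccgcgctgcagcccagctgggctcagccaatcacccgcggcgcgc
Acaa1a: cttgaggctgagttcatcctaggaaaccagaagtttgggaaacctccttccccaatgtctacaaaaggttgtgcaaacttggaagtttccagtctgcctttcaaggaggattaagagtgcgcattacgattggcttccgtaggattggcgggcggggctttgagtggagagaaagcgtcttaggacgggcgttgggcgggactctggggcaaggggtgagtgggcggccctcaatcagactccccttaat
Acaa1b: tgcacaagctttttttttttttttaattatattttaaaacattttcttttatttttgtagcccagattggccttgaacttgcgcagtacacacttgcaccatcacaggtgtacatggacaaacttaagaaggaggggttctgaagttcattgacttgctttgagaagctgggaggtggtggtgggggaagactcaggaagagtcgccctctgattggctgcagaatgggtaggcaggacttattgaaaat
Hadha-Hadhb: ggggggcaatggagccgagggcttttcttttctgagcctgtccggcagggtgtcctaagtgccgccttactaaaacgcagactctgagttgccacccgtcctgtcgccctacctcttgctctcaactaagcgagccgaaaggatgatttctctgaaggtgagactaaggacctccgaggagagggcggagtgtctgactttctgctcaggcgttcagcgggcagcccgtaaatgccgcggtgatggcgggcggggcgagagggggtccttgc

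Of the 27 members with a window in the RefSeq table, 5 held AGGTCA on either strand (Acadm, Acadvl, Acot12, Cpt1a and Echs1). Over all genes, 14.0% of 32851 windows of the same length did. Members were counted once, for the motif in any of their windows, while these shares are per window, so the units differ. The repeat AGGTCANAGGTCA, which contains the half-site, was in none of the 27 members and in 0.0335% of all windows. TATAAA was in none of the 27 and in 12.4% of all. The Acaa1a and Acaa1b windows, aligned over their whole length with gaps allowed, were identical at 148 of 288 aligned columns (51.4%). No unrelated windows were aligned beside them, so this share cannot be read as conservation. No window was matched for Crat, Acaa2, Decr1, Cyp4a10, Cyp4a14 and Acat1.

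Depth was high and uneven. Total counts ran from 40432530 to 76529328 per biopsy, and the 33 members together took 0.254% (responder 1) to 0.580% (vehicle 2) of them. A member's count in a biopsy ran from 24 to 102243. The ribosomal RNA precursor gene Rn45s took 3.70% to 6.87% of counts in vehicle, 11.0% to 23.5% in non-responder and 16.3% to 25.7% in responder biopsies, so its share differed between the groups without overlap of vehicle with the other two. Its part in the results below was not tested beyond the alternatives given at the end. Summed hepatocyte markers (7 of 8 in the table) were 3115 to 5908 FPKM. The 5 adipocyte and muscle markers were not in the table, and 1 of 7 leukocyte markers was.

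Compared per transcript length, the members spanned a wide range of levels. FPKM, the read number divided by transcript length and by all mapped reads (Rn45s included), was used here because it can be set side by side between genes. Acaa1b, a peroxisomal thiolase, was the highest at 740 ± 264 FPKM (mean ± SD, n = 10), above 99.5% of the genes in the table. The electron transfer flavoprotein subunits Etfa and Etfb followed at 360 ± 115 and 278 ± 52.3 FPKM, then the second peroxisomal thiolase Acaa1a at 153 ± 34.7 FPKM and the ketogenic thiolase Acat1 at 125 ± 43.7 FPKM. Etfa and Etfb lay within their spread of each other, as did Acaa1a and Acat1. The lowest were Pdk4 at 0.992 ± 0.682 FPKM, Eci2 at 1.51 ± 0.688 FPKM and Decr1 at 1.67 ± 0.454 FPKM. Cpt1a, the control point of mitochondrial entry, was at 5.83 ± 1.03 FPKM, below Cpt2 at 36.9 ± 17.6 FPKM. For scale, the hepatocyte marker Alb was 380 to 916 FPKM over the 10 biopsies.

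Some of these levels rest on reads that another gene could share. Stretches as long as 1 read that occur word for word in another transcript made up 65.2% of Etfb (Gm45233), 52.6% of Hadhb (Gm13910 and Gm9108), 22.4% of Acaa1b and 21.4% of Acaa1a (each other), 17.0% of Acot2 (Acot1), 12.5% of Cyp4a10 (Cyp4a32 and Cyp4a31) and 1.28% of Eci2 (Eci3). The other 26 members shared none. Exons of 14 members also overlap an annotated gene, on the opposite strand in 13 of them, among them Acadvl with Dvl2, Crat with Dolpp1, Hadha with Garem2 and Acsl5 with Zdhhc6. Whether counting used strand was not stated, so reads of such pairs cannot be told apart.

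Mitochondrial oxidation and peroxisomal oxidation had similar summed levels, ketogenesis was several-fold below them and omega oxidation was lowest. The 18 mitochondrial genes (carnitine shuttle, beta-oxidation and electron transfer) summed to 1080 FPKM on average over the 10 biopsies, the 6 peroxisomal genes to 933 FPKM, the 2 ketogenesis genes Acat1 and Bdh1 to 149 FPKM and the 2 omega genes Cyp4a10 and Cyp4a14 to 10.1 FPKM. Without Acaa1b the peroxisomal sum averaged 193 FPKM. Within the mitochondrial sum the 3 electron transfer genes averaged 666 FPKM, the 11 beta-oxidation genes 346 FPKM and the 4 shuttle genes 67.8 FPKM. The mitochondrial sum and its ratios are thus mostly those of electron transfer. These sums count genes of the list, which hold unequal shares of each pathway.

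**Figure D1:**
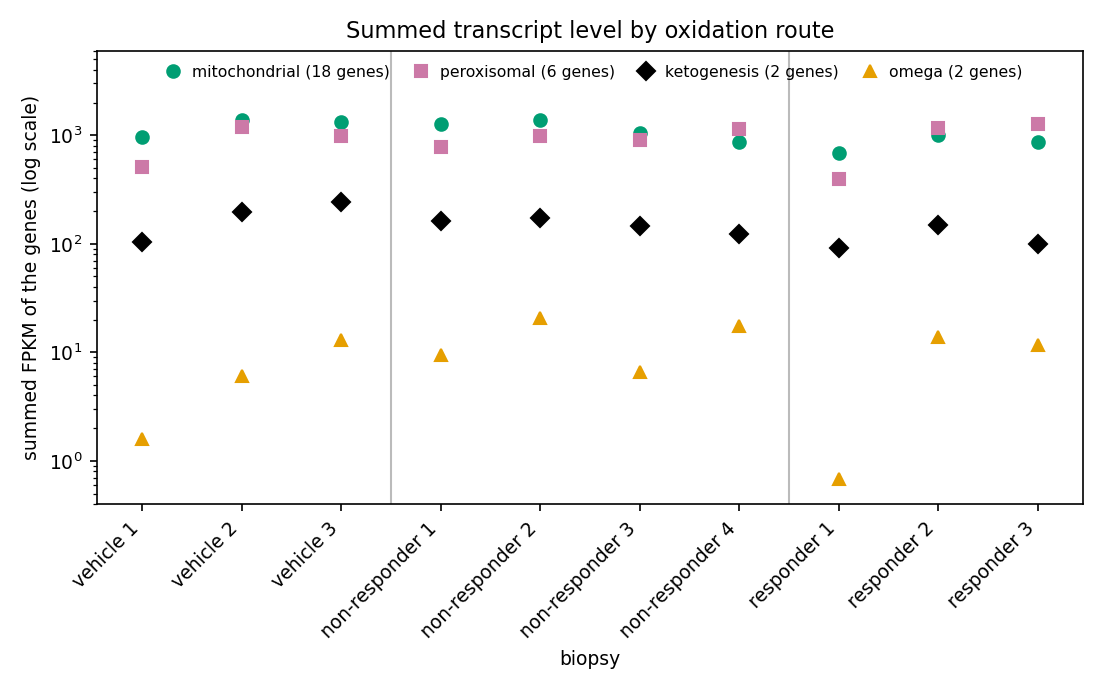
Summed FPKM (log axis) of the mitochondrial, peroxisomal, ketogenesis and omega genes in each of the 10 biopsies, 1 point per biopsy and route. On this scale, whose divisor includes Rn45s reads, responder 1 was lowest for all 4 routes. On the CPM scale used further below, the ketogenesis genes Acat1 and Bdh1 were lowest in vehicle 1. The omega sum ran from 0.681 to 20.6 FPKM while the mitochondrial sum ran from 687 to 1393 FPKM.

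Ratios within a biopsy do not depend on how libraries are scaled. The mitochondrial sum was 5.47 to 9.40 times the ketogenesis sum, with group means of 7.28 ± 1.98 in vehicle (SD, n = 3), 7.55 ± 0.526 in non-responder (n = 4) and 7.61 ± 0.997 in responder biopsies (n = 3). The groups overlapped and the means lay within 1 SD of each other. The peroxisomal sum was 4.08 to 12.7 times the ketogenesis sum, at 5.02 ± 1.00, 6.49 ± 1.92 and 8.28 ± 4.19 in the same order, and without Acaa1b the ratio was 0.929 to 2.02. The highest peroxisomal ratio was in responder 3, but responder 1 at 4.36 was below every non-responder. The omega sum was 0.00745 to 0.141 times the ketogenesis sum, lowest in responder 1 and highest in non-responder 4. So the omega genes varied 18.9-fold against ketogenesis across the biopsies, the peroxisomal genes 3.12-fold and the mitochondrial genes 1.72-fold. These are descriptions with no test.

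For comparisons of a gene between biopsies, counts were scaled to CPM, counts per 1000000 counts, with TMM factors over all 10 libraries. Values below are listed in the order of mouse numbers, vehicle 1 to 3, non-responder 1 to 4 and responder 1 to 3. The numbers only name mice.

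Single biopsies stood apart across the members, in different groups. Responder 1 had the lowest value for 19 of the 33 members (57.6%, against 14.6% of all 10913 genes), and vehicle 1 for 13 (39.4%, against 13.1%). Hadhb, lowest in responder 3, was the exception. Responder 1 was below the gene's mean for 32 of 33 members, with a median deviation of -0.53 on the log2 scale, where the median over all genes was 0.02. Vehicle 1 was below the mean for 28 of 33, with a median deviation of -0.40. Non-responder 2 was highest for 10 members (30.3%, against 6.11% of all genes), vehicle 3 for 7 and responder 3 for 6.

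**Figure D2:**
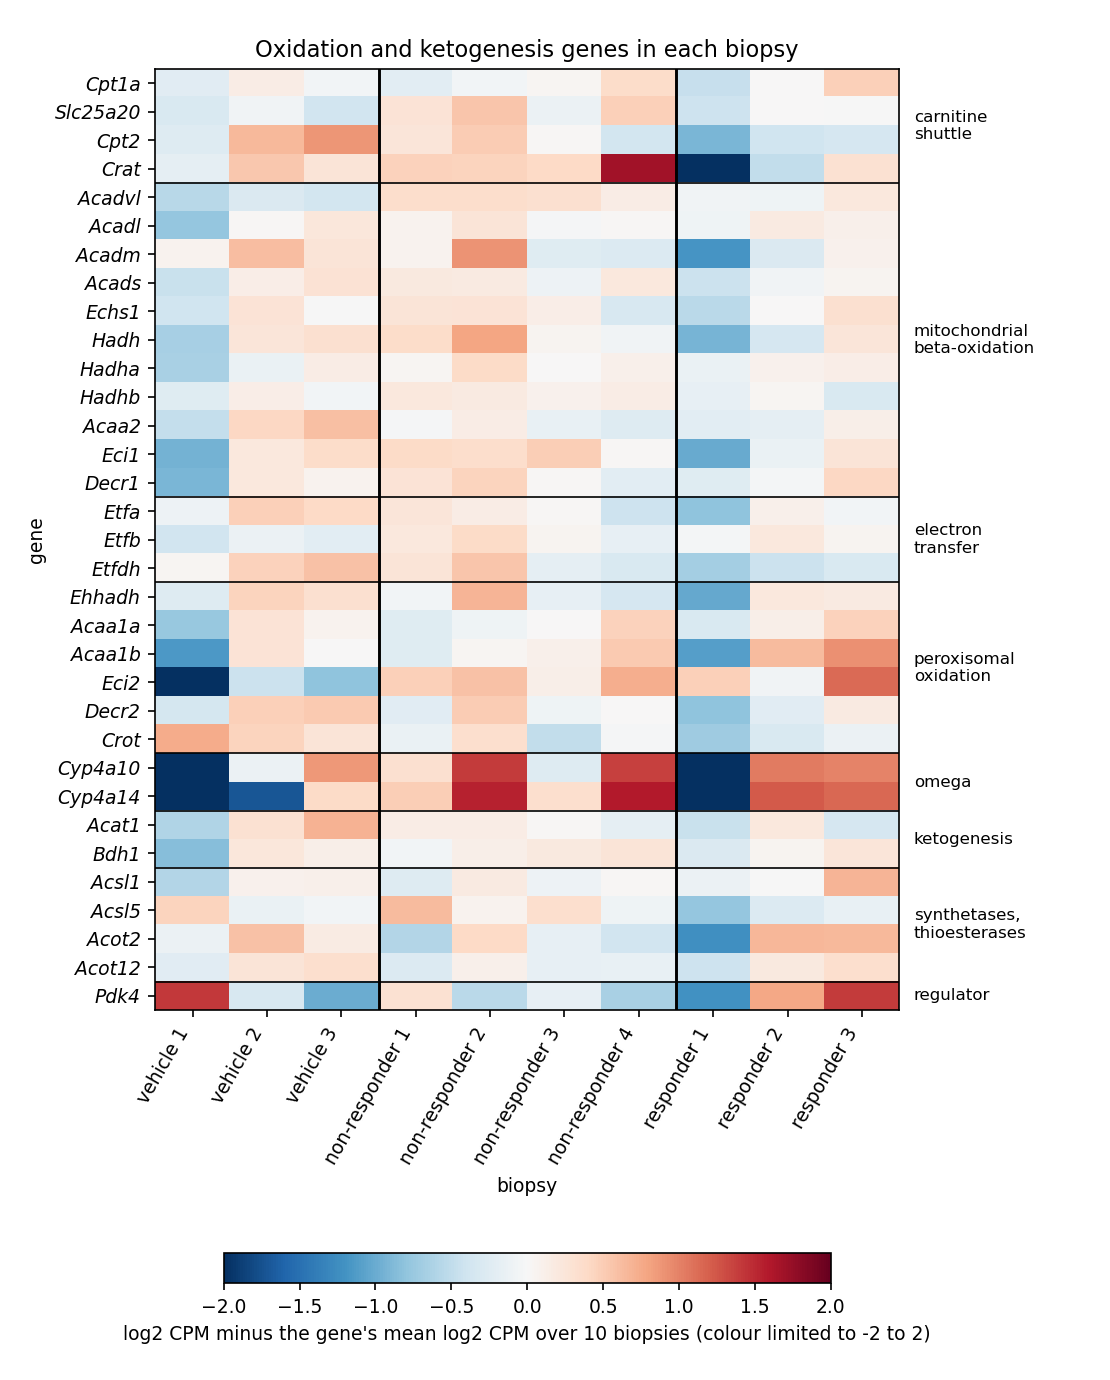
Deviation of log2 CPM from each gene's mean over 10 biopsies (colour, limited to -2 to 2), with the 33 genes in rows by role and the biopsies in columns by group. Responder 1 and vehicle 1 are mostly blue (32 and 28 of 33 genes below their mean), and both lie in different groups.

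The low biopsies differed from each other in other measures. Rn45s took 22.8% of counts in responder 1 and 6.58% in vehicle 1. Summed periportal markers (7 of 7 in the table) were 5122 FPKM in vehicle 1, the highest of all biopsies, and 3785 FPKM in responder 1, within a range of 2264 to 5122 FPKM. Summed pericentral markers (7 of 7) were 1305 FPKM in vehicle 1, the lowest, and 1596 FPKM in responder 1, against up to 2204 FPKM. Hepatocyte markers were 5205 and 3759 FPKM in these biopsies, inside the range of the others. The part of these measures in the low values was not tested.

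Between responders and non-responders, which compares biopsies before treatment by the later outcome, no member passed the test. None of 10826 genes did (0% called, edgeR quasi-likelihood test, Benjamini-Hochberg adjusted p under 0.05), and DESeq2 called 273 genes with no member among them. At an unadjusted p under 0.05 edgeR gave 3 members, all lower in responders (Acsl5, Cpt2 and Etfdh; 9.09% of members, against 6.13% of all genes in that direction and 13.9% in both). Groups without overlap were found for 3 members, all lower in responders (Hadhb, Acsl5 and Crat; 9.09%, against 6.64% of all genes), and for no member in the other direction, against 7.65%. Log2 fold changes were below 0 for 25 of 33 members (75.8%, against 50.8% of all genes), with a median of -0.20 against -0.01 over all genes.

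By role, the carnitine shuttle (median log2 fold change -0.55) and the omega genes (-0.42, but 0.13 without responder 1) lay lowest. All 11 beta-oxidation genes had log2 fold changes below 0 (median -0.26) under TMM, DESeq2 and quantile scaling, as did 17 of 18 mitochondrial genes (18 of 18 on quantile-scaled FPKM). The peroxisomal genes split 3 to 3 (median -0.06), both ketogenesis genes were below 0 (median -0.15), and the synthetases and thioesterases had 3 of 4 above 0 (median 0.22). These counts rested in large part on responder 1. Without it, 18 of 33 members were above 0 (median 0.01), 7 of 11 beta-oxidation genes and 11 of 18 mitochondrial genes stayed below 0 (medians -0.13 and -0.17), and the peroxisomal median was 0.14. Without responder 3, 30 of 33 were below 0 (median -0.30), and without non-responder 2 the median was -0.14, with 8 of 11 beta-oxidation genes below 0. With the Rn45s share as a covariate, 20 of 33 members and 7 of 11 beta-oxidation genes were below 0. With it the members' median was -0.19, against 0.01 over all genes. Summed endothelial markers (6 of 6) were 32.9 to 39.0 FPKM in non-responders and 23.6 to 31.0 FPKM in responders, and 5 of the 6 had log2 fold changes below 0 (median -0.25). Summed pericentral markers (7 of 7) were 1771 to 1916 and 1375 to 1718 FPKM, but 6 of the 7 had log2 fold changes above 0 in the edgeR test (median 0.24). Of the 7 hepatocyte markers in the table, 6 had log2 fold changes below 0 and 1 above (median -0.17, 0 called). The part of these markers in the members' fold changes was not tested.

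**Figure D3:**
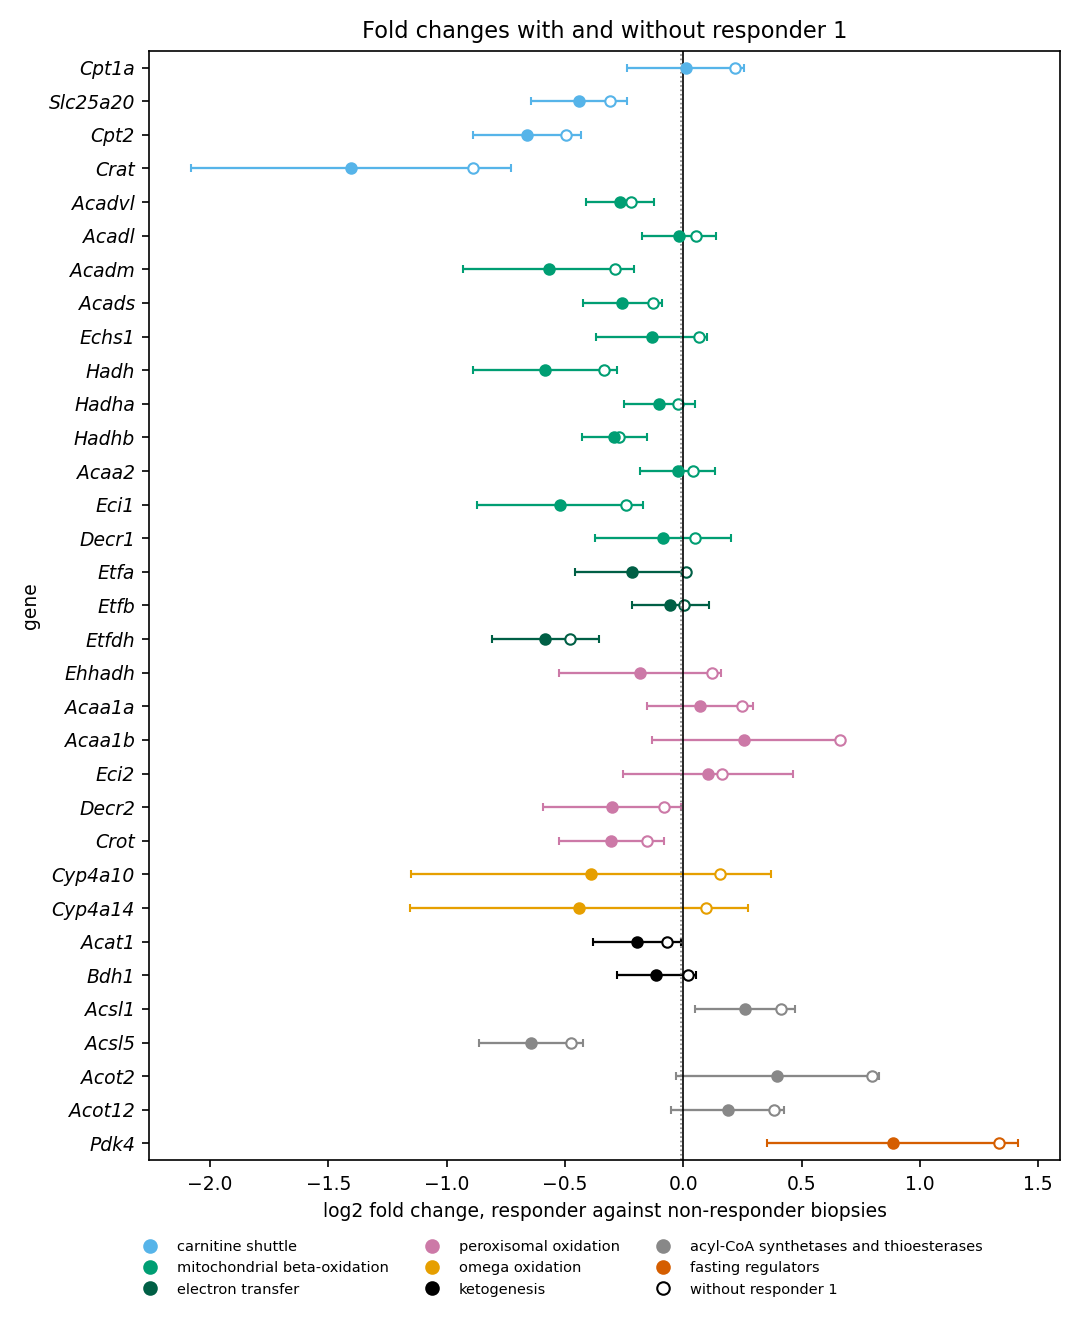
Log2 fold change of each member between responder and non-responder biopsies (filled points, bars ± 1 SE derived from the edgeR F statistic, n = 3 and 4; the dotted line is the median over all genes) and the same without responder 1 (open points). All 11 mitochondrial beta-oxidation genes lie left of 0 with every biopsy, and 7 of 11 without responder 1.

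The carnitine shuttle held Crat, the member with the widest range, and Cpt2, 1 of the 3 members at an unadjusted p under 0.05. Cpt1a, the outer-membrane carnitine palmitoyltransferase, was 22.1, 28.6 and 24.8 CPM in the vehicle biopsies, 22.3, 24.99, 26.7 and 33.4 CPM in the non-responder biopsies, and 18.8, 25.98 and 36.1 CPM in the responder biopsies. The groups covered each other, and the log2 fold change between responders and non-responders was 0.01 ± 0.25 (SE, adjusted p = 0.989), with a sign that turned when 1 biopsy was left out. Slc25a20, the translocase that carries acylcarnitines across the inner membrane, was 33.7, 39.4 and 31.8 CPM in the vehicle biopsies, 49.8, 60.9, 38.3 and 57.4 CPM in the non-responder biopsies, and 30.99, 41.5 and 41.3 CPM in the responder biopsies. Non-responder 3 lay among the responders, and the change was -0.44 ± 0.20 (SE, adjusted p = 0.372).

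Cpt2, the inner-membrane enzyme that returns the chain to CoA, was 68.8, 128 and 151 CPM in the vehicle biopsies, 96.8, 116, 83.5 and 63.5 CPM in the non-responder biopsies, and 43.4, 62.1 and 65.03 CPM in the responder biopsies. All responders but responder 3 lay below every non-responder, and the log2 fold change was -0.66 ± 0.23 (SE, adjusted p = 0.264). Crat, the carnitine acetyltransferase, was 6.90, 11.3 and 9.36 CPM in the vehicle biopsies, 10.8, 10.6, 10.3 and 24.99 CPM in the non-responder biopsies, and 0.740, 5.58 and 9.65 CPM in the responder biopsies. Its highest and lowest biopsies differed 33.8-fold, the widest range of the members, with 26 counts in responder 1 and 953 in non-responder 4. The responders lay below the non-responders, and the change of -1.40 ± 0.68 (SE, adjusted p = 0.397) became -0.89 without responder 1.

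In mitochondrial beta-oxidation the acyl-CoA dehydrogenases take the first step, each for its own chain length. Acadvl, for very long chains, was 91.8, 111 and 105 CPM in the vehicle biopsies, 172, 172, 169 and 150.2 CPM in the non-responder biopsies, and 129, 127 and 157 CPM in the responder biopsies. Responder 3 lay above non-responder 4, and the log2 fold change between responders and non-responders was -0.27 ± 0.14 (SE, adjusted p = 0.444). Acadl, for long chains, ran from 21.5 CPM (vehicle 1) to 43.9 CPM (non-responder 2), Acadm, for medium chains, from 11.5 CPM (responder 1) to 48.5 CPM (non-responder 2), and Acads, for short chains, from 48.2 CPM (vehicle 1) to 80.7 CPM (vehicle 3). None of these passed the test in any comparison.

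For the later steps of the cycle, Hadha and Hadhb encode the subunits of the mitochondrial trifunctional protein and are read in opposite directions from start sites on either side of the 272 bases printed above. Hadha was 91.9, 131 and 159 CPM in the vehicle biopsies, 147, 187, 144 and 155 CPM in the non-responder biopsies, and 131, 153 and 158 CPM in the responder biopsies. Hadhb was 105, 135 and 119 CPM in the vehicle biopsies, 144, 140.1, 131 and 137 CPM in the non-responder biopsies, and 110.4, 127 and 100.8 CPM in the responder biopsies. Hadhb had the narrowest range of the members (1.42-fold) and its responders lay below its non-responders, with a log2 fold change of -0.29 ± 0.14 (SE, adjusted p = 0.39), while the Hadha groups overlapped at -0.10 ± 0.15 (SE, adjusted p = 0.799). As given above, 52.6% of its read-length stretches also occur in other transcripts.

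Hadh, the hydroxyacyl-CoA dehydrogenase for shorter chains, was 18.02, 33.6 and 35.6 CPM in the vehicle biopsies, 36.8, 49.3, 29.5 and 27.3 CPM in the non-responder biopsies, and 14.9, 22.6 and 33.8 CPM in the responder biopsies. Responder 3 lay among the non-responders, and the change was -0.58 ± 0.30 (SE, adjusted p = 0.431). The hydratase Echs1 ran from 28.5 to 51.4 CPM, the thiolase Acaa2 from 83.9 to 177 CPM, and the auxiliary enzymes for unsaturated chains, Eci1 and Decr1, from 1.74 to 4.90 CPM and from 2.66 to 6.83 CPM. Their groups overlapped.

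Electron transfer takes the electrons of the dehydrogenases to the respiratory chain. Etfdh, the oxidoreductase that hands them to ubiquinone, was 63.4, 85.4 and 93.2 CPM in the vehicle biopsies, 74.3, 90.7, 54.7 and 50.1 CPM in the non-responder biopsies, and 38.6, 46.1 and 50.2 CPM in the responder biopsies. Responder 3 was just above non-responder 4, and the log2 fold change between responders and non-responders was -0.58 ± 0.23 (SE, adjusted p = 0.302). Etfb was 200.2, 239 and 225 CPM in the vehicle biopsies, 303, 340.2, 270.2 and 231 CPM in the non-responder biopsies, and 254, 301 and 271 CPM in the responder biopsies. Responders and non-responders covered each other at -0.05 ± 0.16 (SE, adjusted p = 0.911), and Etfa ran from 300.2 CPM (responder 1) to 729 CPM (vehicle 2).

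Peroxisomal genes gave both signs. Ehhadh, the bifunctional hydratase and dehydrogenase, was 21.05, 34.4 and 31.4 CPM in the vehicle biopsies, 24.1, 40.2, 22.3 and 19.9 CPM in the non-responder biopsies, and 12.4, 29.2 and 28.6 CPM in the responder biopsies. Responder 1 was lowest and the other responders lay inside the range of the non-responders, with a log2 fold change of -0.18 ± 0.34 (SE, adjusted p = 0.846). Acaa1b was 543, 1447 and 1201 CPM in the vehicle biopsies, 1011, 1234, 1293 and 1718 CPM in the non-responder biopsies, and 558, 1865 and 2273 CPM in the responder biopsies. Responder 2 and responder 3 were the highest of all biopsies and responder 1 was, with vehicle 1, among the lowest, so the change of 0.26 ± 0.39 (SE, adjusted p = 0.802) was within the spread of the responders and became 0.66 without responder 1 and -0.12 without responder 3. Its paralog Acaa1a ran from 162 to 381 CPM, and Decr2, the peroxisomal dienoyl-CoA reductase, from 6.12 to 15.5 CPM.

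Eci2, an enoyl-CoA isomerase of peroxisomes, was 0.460, 1.62 and 1.25 CPM in the vehicle biopsies, 3.02, 3.26, 2.36 and 3.59 CPM in the non-responder biopsies, and 3.02, 2.07 and 4.75 CPM in the responder biopsies. Responders and non-responders covered each other at 0.11 ± 0.36 (SE, adjusted p = 0.921). Crot, which makes the carnitine esters of the shortened chains, was 111, 90.6 and 79.2 CPM in the vehicle biopsies, 60.2, 83.9, 46.99 and 64.9 CPM in the non-responder biopsies, and 40.6, 53.4 and 60.99 CPM in the responder biopsies. The change between responders and non-responders was -0.30 ± 0.22 (SE, adjusted p = 0.576), with overlapping groups.

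The omega-hydroxylases Cyp4a10 and Cyp4a14, which are known in mice as sensitive PPAR alpha targets, gave the widest ranges after Crat. Cyp4a10 was 2.24, 10.4 and 20.6 CPM in the vehicle biopsies, 14.1, 29.6, 9.40 and 28.9 CPM in the non-responder biopsies, and 1.17, 23.2 and 22.3 CPM in the responder biopsies. Cyp4a14 was 1.02, 1.47 and 6.27 CPM in the vehicle biopsies, 6.77, 13.9, 6.08 and 14.4 CPM in the non-responder biopsies, and 0.683, 11.2 and 10.7 CPM in the responder biopsies. The highest and lowest biopsies differed 25.3-fold and 21.0-fold, where the median was 2.47-fold over the members and 2.45-fold over all genes. Both were lowest in responder 1, next in vehicle 1, and highest in non-responder 2 and non-responder 4, and no biopsy differed by more than 1 place between the 2 rankings. The ratio of Cyp4a10 to Cyp4a14 was 1.55 to 2.19 in 8 biopsies, 3.28 in vehicle 3 and 7.09 in vehicle 2. Log2 fold changes between responders and non-responders were -0.39 ± 0.76 (SE, adjusted p = 0.855) and -0.44 ± 0.71 (SE, adjusted p = 0.817), and without responder 1 they were 0.16 and 0.10. The counts behind the low values were 41 and 24 in responder 1.

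**Figure D4:**
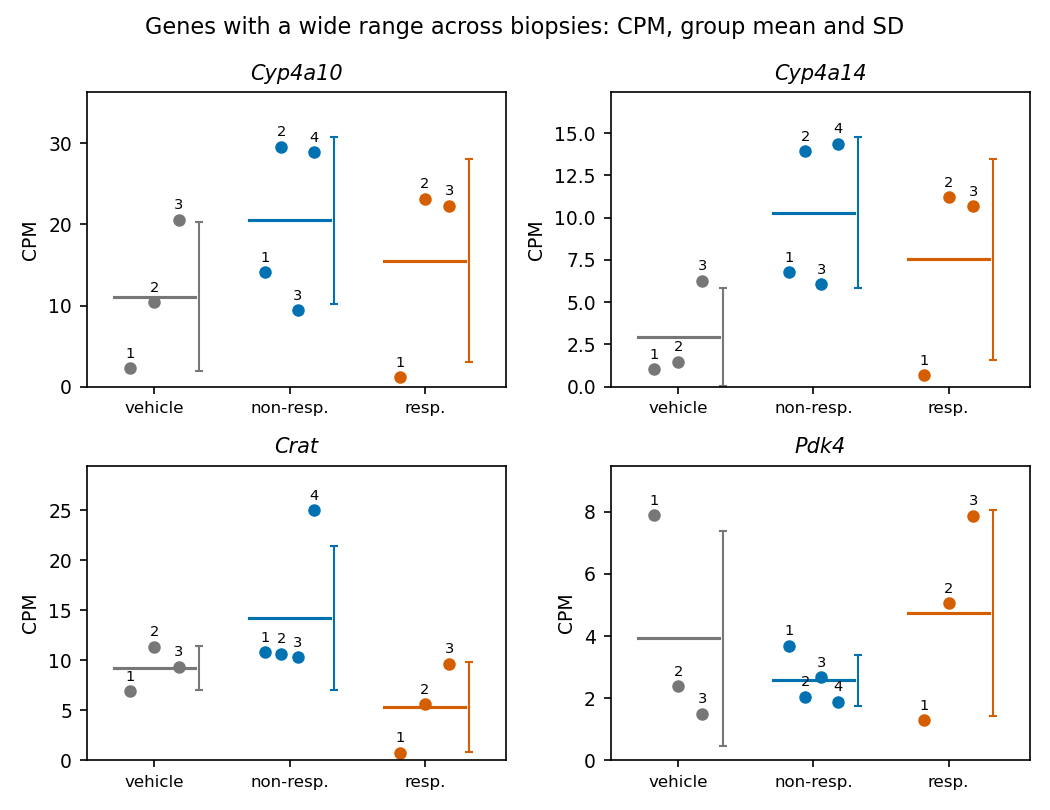
CPM of Cyp4a10, Cyp4a14, Crat and Pdk4 in each biopsy (points, numbered by mouse), with group means (lines) and SD (bars) for vehicle (n = 3), non-responder (n = 4) and responder (n = 3). Responder 1 is lowest in all 4 panels, and vehicle 1 is low for the Cyp4a genes (2.24 and 1.02 CPM) and high for Pdk4 (7.89 CPM).

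Ketogenesis was represented by Acat1, the mitochondrial acetoacetyl-CoA thiolase, and Bdh1, which interconverts acetoacetate and beta-hydroxybutyrate. Acat1 was 277, 522 and 684 CPM in the vehicle biopsies, 466, 468, 428 and 373 CPM in the non-responder biopsies, and 309.5, 489.8 and 335 CPM in the responder biopsies. Bdh1 was 41.1, 86.5 and 80.3 CPM in the vehicle biopsies, 71.2, 80.2, 84.4 and 88.4 CPM in the non-responder biopsies, and 60.5, 76.6 and 87.1 CPM in the responder biopsies. Both were lowest in vehicle 1, and responders overlapped non-responders at -0.20 ± 0.19 (SE, adjusted p = 0.665) for Acat1 and -0.11 ± 0.17 (SE, adjusted p = 0.793) for Bdh1. Their ranges of 2.47-fold and 2.15-fold were close to the median of all genes.

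Among the enzymes that make or split acyl-CoA, Acsl5, a long-chain acyl-CoA synthetase, gave the smallest p of the members between responders and non-responders. It was 216, 144 and 152 CPM in the vehicle biopsies, 246, 166, 200.1 and 149.6 CPM in the non-responder biopsies, and 92.2, 131 and 142 CPM in the responder biopsies. All responders lay below all non-responders, with a log2 fold change of -0.64 ± 0.22 (SE, adjusted p = 0.26) that stayed between -0.77 and -0.48 when any 1 biopsy was left out. Acsl1, the main hepatic synthetase, ran from 221 to 535 CPM, with the highest value in responder 3, at 0.26 ± 0.21 (SE, adjusted p = 0.614). The thioesterases Acot2 and Acot12 ran from 4.13 to 15.2 CPM and from 9.42 to 15.8 CPM, with responder 1 lowest for both.

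Pdk4, the kinase that turns off pyruvate dehydrogenase in fasting, had another order of biopsies than the oxidation genes. It was 7.89, 2.39 and 1.49 CPM in the vehicle biopsies, 3.69, 2.04, 2.67 and 1.89 CPM in the non-responder biopsies, and 1.28, 5.06 and 7.87 CPM in the responder biopsies. Vehicle 1, low for most members, was highest here with responder 3 next, and responder 1 was lowest. The log2 fold change between responders and non-responders was 0.89 ± 0.53 (SE, adjusted p = 0.496).

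The later OCA mice (7) were also set against the vehicle mice (3), which describes how alike the arms were before treatment. No member passed the test, while 129 of 10844 genes did (1.19% called). At an unadjusted p under 0.05 there were 6 members (18.2%, against 19.2% of all genes): Acadvl, Eci2, Etfb and Cyp4a14 higher and Crot and Cpt2 lower in the later OCA mice. Acadvl was 91.8 to 111 CPM in vehicle and 127 to 172 CPM in OCA biopsies, without overlap, and Eci2 was 0.46 to 1.62 CPM and 2.07 to 4.75 CPM, also without overlap. Such separation was seen for 6.06% of members and 5.51% of all genes in that direction. Log2 fold changes were 0.59 ± 0.15 (SE, adjusted p = 0.0745) for Acadvl, 1.51 ± 0.41 (SE, adjusted p = 0.0822) for Eci2, -0.67 ± 0.20 (SE, adjusted p = 0.106) for Crot and 0.35 ± 0.15 (SE, adjusted p = 0.225) for Etfb. DESeq2 called Acadvl and Eci2, and edgeR with all 3 groups in 1 fit called Acadvl. Of the 7 hepatocyte markers in the table, 5 also had log2 fold changes above 0 in this comparison (median 0.59), 2 of them called higher, and their part was not tested. The number of genes passing was 1 without vehicle 2 or vehicle 3, 9 without non-responder 3 or responder 3, 20 without vehicle 1 or responder 2, and 103 to 158 without any other biopsy.

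**Figure D5:**
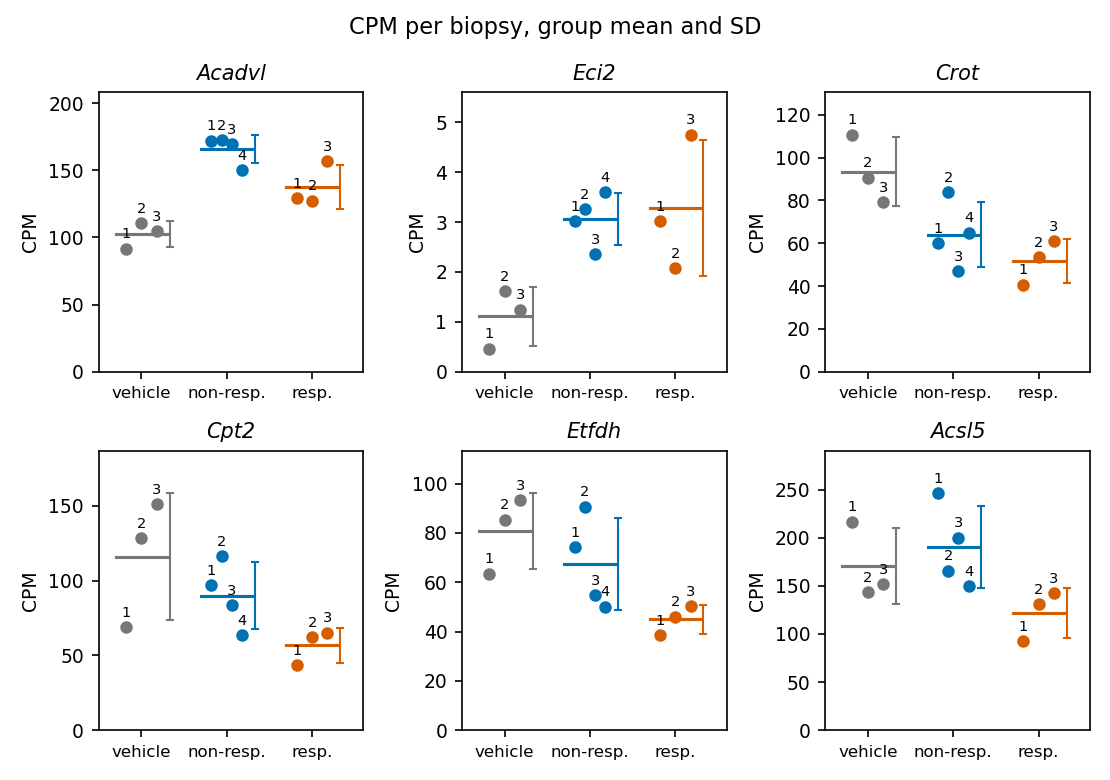
CPM of Acadvl, Eci2, Crot, Cpt2, Etfdh and Acsl5 in each biopsy (points, numbered by mouse), with group means (lines) and SD (bars) for vehicle (n = 3), non-responder (n = 4) and responder (n = 3). Every later OCA biopsy is above every vehicle biopsy for Acadvl and Eci2, and the responders are below the non-responders for Acsl5.

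The responders and the non-responders were each set against the same vehicle biopsies, so these results share their controls. Against vehicle, 488 of 10785 genes passed in responders (4.52% called) and 5 of 10832 in non-responders (0.0462% called), with no member in either. The members nearest to the threshold were lower in responders: Etfdh at -0.85 ± 0.20 (SE, adjusted p = 0.051), Crot at -0.86 ± 0.21 (SE, adjusted p = 0.0553) and Cpt2 at -1.03 ± 0.30 (SE, adjusted p = 0.0778). All 3 lay in responders below every vehicle biopsy, and in all 7 members separated from vehicle (21.2%, against 32.7% of all genes), 3 higher (9.09%, against 16.3%) and 4 lower (12.1%, against 16.4%). The number of genes passing was 848 without vehicle 1 (Etfdh and Cpt2 among them), 81 without responder 1, 15 without responder 2, 9 without vehicle 2, 3 without responder 3 and 0 without vehicle 3. At an unadjusted p under 0.05 there were 5 members in responders (15.2%, against 26% of all genes) and 5 in non-responders (15.2%, against 14.6%). In non-responders the same genes gave -0.25 ± 0.23 (SE, adjusted p = 0.666), -0.54 ± 0.21 (SE, adjusted p = 0.279) and -0.36 ± 0.28 (SE, adjusted p = 0.601). Acadvl and Eci2, the only members whose non-responders all lay above vehicle (6.06%, against 8.76% of all genes), were higher than vehicle in both, at 0.42 and 1.56 in responders and 0.70 and 1.47 in non-responders on the log2 scale, and missed the threshold in both (adjusted p = 0.155, 0.117, 0.130 and 0.190). Summed cholangiocyte markers (3 of 5, without Krt7 and Epcam) were 19.6 to 24.7 FPKM in vehicle, 8.24 to 20.3 FPKM in non-responders and 8.19 to 8.45 FPKM in responders, and summed stellate cell markers (7 of 7) were 133 to 198, 93.0 to 178 and 102 to 130 FPKM in the same order. In responders against vehicle 1 marker of each of these lists was called lower, and hepatocyte markers had 5 of 7 above 0 (median 0.57, none called). The part of these markers was not tested. Rn45s, given above, also separated vehicle from both groups, and with its share as a covariate edgeR called no gene in responders against vehicle (338 at an unadjusted p under 0.05, no member among them). There Etfdh was -0.42, Cpt2 -0.081 and Crot -1.42 on the log2 scale. Because the Rn45s share did not overlap between vehicle and responders, that fit cannot tell the share from the group. The lost calls therefore decide nothing.

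The median coefficient of variation of CPM over the 33 members was 25.1% in vehicle (all genes 18.8%), 19.4% in non-responder (22.0%) and 26.2% in responder biopsies (22.2%). It was smallest for Hadhb in non-responders (3.80%) and largest for Cyp4a14 in vehicle (99.6%).

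Other genes of the same pathways were taken from a list of 81, of which 73 were in the table. Between responders and non-responders none of them passed the test (0% of all genes), and 34 were above 0 and 39 below (median log2 fold change -0.06). All 5 further ketogenesis and ketone-use genes were below 0 (median -0.43), led by Oxct1, which lets tissues use ketone bodies (-1.26), and the transporter Slc16a1 (-0.43) and Bdh2 (-0.56). Of 15 mitochondrial genes 9 were below 0, with Acad10 (-0.53), Mlycd (-0.34), Acadsb (-0.28) and Slc25a42 (0.22) nearest to the threshold. Of 15 peroxisomal genes 8 were below 0, among them Hsd17b4, the bifunctional enzyme for branched chains (-0.21), the transporter Abcd3 (-0.21), Phyh (-0.19) and Scp2 (-0.13).

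Omega oxidation genes outside the set gave both signs. Of the 8 measured, 3 were above 0, and Cyp4a12a (-0.51), Cyp4a32 (0.78), Cyp4f15 (0.34) and Cyp4v3 (0.34) came nearest to the threshold. Among 11 synthetases, thioesterases and related genes, Slc27a4 (-0.73), Acsm3 (-0.56), Acsl3 (1.04) and Acsl4 (0.40) did. The 19 regulators split 10 above and 9 below. The coactivator Ppargc1a gave a log2 fold change of 1.97 ± 0.62 (SE, adjusted p = 0.245, edgeR), and Ppargc1b (0.56), the corepressor Ncor1 (0.46) and Lpin1 (0.84) also lay above 0. Ppargc1a was 76.4 to 416 CPM in vehicle, 74.2 to 317 CPM in non-responder and 162 to 752 CPM in responder biopsies, so the groups overlapped. PPAR alpha itself (Ppara) was lowest in vehicle 1 (10.6 CPM) and responder 1 (20.5 CPM), the biopsies lowest for most members, and was 23.2 to 44.9 CPM in the other 8. Ppargc1a was 416 CPM in vehicle 1 and 162 CPM in responder 1. The regulator Creb3l3 was lowest in vehicle 1 (17.2 CPM) but 42.2 CPM in responder 1. The part of these regulators in the low values was not tested.

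PPAR alpha targets outside oxidation (14 of 17 in the table) gave no call between responders and non-responders, with 5 above 0 and 9 below (median -0.22). Por, the electron donor of microsomal P450 enzymes (0.90), the lipid droplet protein Plin2 (-0.82), Ucp2 (-0.55) and the fatty acid carrier Fabp1 (-0.39) came nearest. Against vehicle, 0 of these 14 targets were called in the later OCA mice. Of the 73 pathway genes 1 was, near the share over all genes (1.19%). This was Creb3l3, a fasting-induced transcription factor of the liver and 1 of the 19 regulators. Creb3l3 was higher before treatment in the later OCA mice (log2 fold change 0.92 ± 0.17, SE, adjusted p = 0.0336, edgeR). It was also higher in responders than in vehicle (1.00 ± 0.19, adjusted p = 0.0351, edgeR). In responders Ppargc1b was higher (1.16 ± 0.24, adjusted p = 0.0395) and Plin2 lower (-1.33 ± 0.28, adjusted p = 0.0423) than in vehicle. In that comparison 2 of the 73 pathway genes and 1 of the 14 targets were called, with 4.52% of all genes called. With the Rn45s share as a covariate no gene was called in either comparison. As above, that fit cannot tell the share from the group.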

How the data were processed

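Liver biopsies of 10 mice were sequenced, and groups were taken from the sample labels. The authors used FastQC 0.11.7 for read quality, Trimmomatic 0.38 for trimming, HISAT2 2.1.0 for alignment (mm10) and StringTie for counting, and they deposited whole read counts per gene, without normalization, for genes above 0 in every biopsy. The deposited FPKM values were made by the authors from reads, transcript length and all mapped reads, and counts per FPKM varied by under 2% between biopsies for 28 members and by at most 11.4% (Eci2). The deposited log2 values are log2(FPKM + 1) after quantile normalization by the authors. The authors' own comparison columns (signed fold changes, p-values and adjusted p-values) were not used. Both TruSeq Stranded mRNA and SMARTER appear as kits in the labels.

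Counts were tested with edgeR 4.0.16 (R 4.3.3, quasi-likelihood test, TMM factors, filterByExpr with a minimum count of 10 and total of 15) on the biopsies of each comparison, with Benjamini-Hochberg adjustment over all genes tested and a threshold of 0.05. The edgeR test gives no SE. Each SE of a log2 fold change was derived as its absolute value divided by the square root of the F statistic. DESeq2 1.42.0 and limma 3.58.1 (log2 FPKM with pseudocount 1 or 0.1) were alternatives, as were a mean FPKM of at least 1, all 3 groups in one fit, the Rn45s share as a covariate and leaving out each biopsy. Depth was 40432530 to 76529328 counts, so low members rest on few counts (24 at the lowest), and p-values measure only the spread between these biopsies. Replicates of a group differed by more than counting noise (median chi-square of 9.13 or more, against 0.455).

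Each measured member was named with its role. Values per biopsy were given for 20 members, and for other pathway genes up to 4 per role with the smallest p between responders and non-responders were named. Ppara and Creb3l3 were named in addition to these. The members and lists were chosen with earlier results of these data known. Gene positions and shared read-length stretches came from GENCODE on GRCm38, upstream windows of 250 bases from RefSeq.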

Additional observations from a re-analysis of the deposited data

Results flagged for a closer look

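In the group of 4 non-responders, single biopsies lay far from the other 3 for 3 of the 33 members tested. Chance alone gives about 1 in 20 (1.65 expected). The share flagged over all genes was not computed, so these flags cannot be called particular to the members. Crat was 25.0 CPM in non-responder 4 and 10.3 to 10.8 CPM in the others. Acadvl was 150.2 CPM in non-responder 4 and 169 to 172 CPM in the others. Acads was 61.5 CPM in non-responder 3 and 74.5 to 76.5 CPM in the others.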

How the results depend on the processing

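Between responders and non-responders no member was called under any alternative. DESeq2 called 273 genes in all. Leaving out 1 biopsy (or responder 1 together with vehicle 1, chosen after seeing the data) gave 0 to 1 genes and a median over the members of -0.31 to 0.01, the last without responder 1. Signs of single genes turned as follows, and the cause was not tested. Cpt1a was -0.0029 with a mean FPKM of at least 1. On quantile-scaled FPKM (limma, pseudocount 1) Cpt1a was -0.0024, Acaa1a -0.0071 and Acaa1b -0.041, and with pseudocount 0.1 Cpt1a was -0.0076, Acaa1a -0.0071 and Acaa1b -0.042. Without quantile scaling, which shifted the median of all genes by -0.15, Cpt1a was -0.21, Acaa1a -0.16, Acaa1b -0.17, Eci2 -0.11 and Acot12 -0.046. With the Rn45s share as a covariate, Cpt1a was -0.22, Acaa1a -0.18, Eci2 -0.24, Acadl 0.073, Echs1 0.084, Acaa2 0.072, Decr1 0.096, Etfa 0.087, Etfb 0.18, Ehhadh 0.21 and Acat1 0.042. Leave-one-out ranges that crossed 0 were -0.26 to 0.22 for Cpt1a, -0.091 to 0.056 for Acadl, -0.34 to 0.068 for Echs1, -0.13 to 0.044 for Acaa2, -0.30 to 0.051 for Decr1, -0.41 to 0.012 for Etfa, -0.14 to 0.031 for Etfb, -0.39 to 0.12 for Ehhadh, -0.14 to 0.25 for Acaa1a, -0.12 to 0.66 for Acaa1b, -0.26 to 0.34 for Eci2, -0.80 to 0.16 for Cyp4a10, -0.86 to 0.10 for Cyp4a14, -0.24 to 0.021 for Bdh1 and -0.036 to 0.41 for Acsl1.

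For OCA against vehicle (129 genes), DESeq2 called 665 genes and 2 members (Eci2 and Acadvl), limma on quantile-scaled FPKM 259 (197 with pseudocount 0.1), limma without quantile scaling 394, all 3 groups in one fit 326 genes and 1 member (Acadvl), and the Rn45s covariate 0. With that covariate the members' median was 0.45, Etfdh 0.50 and Cpt2 0.62. Vehicle did not overlap the other groups in this share, so in comparisons with vehicle the fit cannot tell the share from the group. Leaving out 1 biopsy gave 1 to 158 genes (1 without vehicle 2 or vehicle 3) and medians of -0.08 to 0.20.

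For responders against vehicle (488 genes), 1 member was called with a mean FPKM of at least 1 (Etfdh), 4 by DESeq2 (Eci2, Crot, Etfdh and Cpt2; 1548 genes), 1 by limma on quantile-scaled FPKM with pseudocount 1 (Etfdh; 726 genes), 0 with pseudocount 0.1 (256 genes), 5 without quantile scaling (Crot, Acadm, Etfdh, Cpt2 and Acsl5; 2033 genes) and 2 with all 3 groups in one fit (Crot and Etfdh; 928 genes). The Rn45s covariate left 0 genes. Without quantile scaling Etfb was -0.058, Slc25a20 -0.25 and Cyp4a10 -0.031, and with the covariate Slc25a20 was -0.10. Leaving out 1 biopsy gave 0 genes (without vehicle 3) to 848 genes (without vehicle 1), 0 to 2 members (Etfdh and Cpt2 without vehicle 1) and medians of -0.22 to 0.19. Leaving out both responder 1 and vehicle 1 gave 1377 genes and 4 members (Pdk4, Acaa1b, Etfdh and Cpt2).

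For non-responders against vehicle (5 genes), the counts were 10 with a mean FPKM of at least 1, 382 by DESeq2 with 3 members (Eci2, Acadvl and Cyp4a14), 16 by limma on quantile-scaled FPKM, 9 without quantile scaling, 11 with all 3 groups in one fit and 0 with the covariate, where Etfdh was 0.53 and Cpt2 0.65. Leaving out 1 biopsy gave 2 to 8 genes and medians of -0.02 to 0.28.

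Mouse numbers are shared between groups, but the labels state no pairing, and none of 9 same-numbered pairs correlated over 0.1 (-0.07 to 0.05). With the number as a replicate block, the test called 74 genes in responders compared with vehicle and 0 genes in each of the other 3 comparisons, with no member among them. Low counts limit Crat, Cyp4a10, Cyp4a14 and Eci2 in single biopsies, where 24 to 41 reads were counted.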
